A study of Mus musculus with 6 samples.

Results

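The genes described here build 2 kinds of sugar attachment on secreted and membrane proteins, the glycosylphosphatidylinositol (GPI) anchor and the asparagine-linked glycan (N-glycan), and were followed in large tumors and small B16 melanomas. They were chosen by symbol from the array platform's annotation: the Pig genes, the Pgap genes, Gpaa1, the Alg genes, Dpm1 to Dpm3, Rpn1, Rpn2, Stt3a, Stt3b, Ddost and the Mgat genes. A gene was kept if at least 3 of the 6 arrays detected one of its probes (detection p under 0.05). Of 46 such symbols 45 passed, out of 10523 genes tested in all. The remaining symbol, Alg13, a subunit of the enzyme that adds the second sugar of the N-glycan precursor, had 1 probe that was detected on 2 arrays. Its log2 values of 4.47, 4.83 and 4.67 in large tumors and 5.47, 5.19 and 4.68 in small tumors lay near the bottom of the scale. No gene sat exactly on the limit of 3 arrays: 44 of the 45 were detected on all 6 arrays, and Pigv on all 3 large and 2 of the 3 small tumors. No gene therefore passed through 1 group alone.

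The large tumors measured 70 to 80 mm2 (3 samples, L1 to L3 in the labels) and the small ones 10 to 20 mm2 (3 samples, S1 to S3). All 6 were taken 8 days after C57BL/6 mice received 400000 B16 cells, a melanoma line that arose in that strain, and carried no other treatment or allele in the labels. The labels give neither the age and sex of the mice nor whether each sample is 1 animal, and the p-values below thus reflect only how far these samples vary, which may be technical. Each was run on 1 Illumina bead array with total RNA of whole dissected tumors, in which fewer cells of a type and less RNA per cell cannot be told apart.

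A GPI anchor is a glycolipid that holds a protein to the outer face of the plasma membrane. It is assembled sugar by sugar on phosphatidylinositol at the endoplasmic reticulum (ER), transferred whole to the protein by the GPI transamidase, and then remodelled on the way to the cell surface. The N-glycan precursor is likewise assembled on a lipid, dolichol, by the Alg enzymes, first on the cytosolic and then on the lumenal face of the ER. The oligosaccharyltransferase moves it onto asparagine residues of proteins entering the ER, and the Mgat enzymes of the Golgi later start its branches. Both routes draw mannose from dolichol phosphate mannose. In melanoma cells, N-glycans are carried by the pigment enzymes and by adhesion receptors, among many other proteins.

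Promoter sequence was at hand for 39 of the 45 genes, from RefSeq on build GRCm38.p6, as windows from 250 bases before to 50 bases after a transcript start. The windows below belong to the 3 genes that passed the test of large against small tumors (Pigs, Pigu and Pigb) and to the only members whose windows held an element of the ER stress response (Alg12 and Pigp), 1 of the 4 windows of Pigp being shown. They are written from 5′ to 3′ on the strand of the gene. Capitals mark matches, on either strand, to the ER stress element (CCAAT and CCACG with 9 bases of any kind between them), its second form (ATTGG and CCACG with 1 base between), the unfolded protein response element TGACGTGG, the CCAAT box and the ETS core CCGGAAG. The first of these elements contains a CCAAT box.
Pigs (chr11:78328172-78328471, plus strand): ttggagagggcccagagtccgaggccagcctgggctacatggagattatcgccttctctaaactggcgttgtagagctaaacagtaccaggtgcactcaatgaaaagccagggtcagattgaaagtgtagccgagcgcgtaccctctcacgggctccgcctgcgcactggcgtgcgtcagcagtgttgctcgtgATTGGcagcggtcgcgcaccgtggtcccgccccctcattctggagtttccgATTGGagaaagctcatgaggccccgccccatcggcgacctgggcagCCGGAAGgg
Pigu (chr2:155357375-155357674, minus strand): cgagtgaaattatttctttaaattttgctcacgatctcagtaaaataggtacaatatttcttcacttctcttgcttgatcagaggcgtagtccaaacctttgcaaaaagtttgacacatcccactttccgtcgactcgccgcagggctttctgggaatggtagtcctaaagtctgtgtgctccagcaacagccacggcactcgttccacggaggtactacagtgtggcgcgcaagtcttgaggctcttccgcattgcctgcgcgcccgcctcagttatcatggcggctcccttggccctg
Pigb (chr9:73039650-73039949, minus strand): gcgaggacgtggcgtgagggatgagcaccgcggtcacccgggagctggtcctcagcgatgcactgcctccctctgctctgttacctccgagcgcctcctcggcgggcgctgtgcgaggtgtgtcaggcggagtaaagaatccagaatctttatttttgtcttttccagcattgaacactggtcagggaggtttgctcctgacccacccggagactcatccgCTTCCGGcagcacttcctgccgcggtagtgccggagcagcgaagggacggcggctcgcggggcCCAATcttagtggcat
Alg12 (chr15:88819269-88819568, minus strand): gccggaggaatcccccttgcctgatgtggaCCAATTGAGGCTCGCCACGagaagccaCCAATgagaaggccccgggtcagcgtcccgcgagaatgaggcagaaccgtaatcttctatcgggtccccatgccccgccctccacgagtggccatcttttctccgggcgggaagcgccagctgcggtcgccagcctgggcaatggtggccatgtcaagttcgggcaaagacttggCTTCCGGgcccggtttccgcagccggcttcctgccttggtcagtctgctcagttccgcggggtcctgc
Pigp (chr16:94370661-94370960, minus strand): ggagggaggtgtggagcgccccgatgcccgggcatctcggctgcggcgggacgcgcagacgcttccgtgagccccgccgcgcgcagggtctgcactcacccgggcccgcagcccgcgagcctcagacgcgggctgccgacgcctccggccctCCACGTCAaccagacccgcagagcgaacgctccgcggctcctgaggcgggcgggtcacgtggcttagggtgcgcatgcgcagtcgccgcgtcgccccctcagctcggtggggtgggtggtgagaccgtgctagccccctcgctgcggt

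The full ER stress element was in the Alg12 window, starting 220 bases before the transcript start, and in the windows of 1 of 39 members (2.56%), against 0.152% of 8531 tested genes with a window. The second form was in 0 of 39 members and 0.0821% of tested genes, and the unfolded protein response element in 1 of 39 (Pigp, 98 bases before the start) and 0.985% of tested genes. A CCAAT box was in 21 members (53.8%) and 42.5% of tested genes, and an ETS core in 14 members (35.9%) and 19.8% of tested genes. Over all 32851 windows of the table the shares were 0.119%, 0.0365%, 0.676%, 37.4% and 8.86% in the same order. Pigu held none of the 5 in its window. These are matches of letters in a window, and binding was not measured.

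Most of the genes had higher levels in large than in small tumors, by a modest amount. Of the 45, 41 had a log2 fold change (large minus small) above 0 and 4 below, where 49.9% of all genes tested were above 0. Their median was 0.42, which is 1.34-fold, against 0.00 for all genes. In 30 of the 45 every large tumor lay above every small tumor, and in 0 every large tumor lay below, against a background of 16.1% and 13.6% of all genes. The test across all genes (limma, Benjamini-Hochberg) called 3 members higher and 0 lower at an adjusted p under 0.05, where 0.789% of all genes were called higher and 1.68% lower. The 3 were Pigs and Pigu of the transamidase and Pigb, which adds the third mannose of the anchor. At an unadjusted p under 0.05, 28 members were higher and 0 lower, against 12.3% and 10.2% of all genes.

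The 3 calls depended on which arrays were used. Pigs and Pigu were still called without small replicate 2, where limma called 77 genes higher over the series (0.732%), and 0 members were called without any other array. The series as a whole lost most or all of its calls too: without large replicates 1, 2 and 3 limma called 0, 29 and 0 genes in both directions together, of which 0 were higher, without small replicate 1 it called 85, of which 8 were higher, and without small replicate 3 it called 1, which was lower. At an unadjusted p under 0.05, 30, 25 and 19 members were higher without large replicates 1, 2 and 3, against 12.2%, 8.35% and 7.81% of all genes. Without small replicates 1 and 3 the counts were 23 and 24, against 9.7% and 9.07% of all genes. The direction held more widely: between 40 and 43 members stayed above 0 and the median stayed between 0.32 and 0.48 whichever array was left out. With quantile normalization alone 41 members were above 0, with an offset of 50 also 41, and with the authors' processed values 43. Centring arrays on their medians in place of quantile normalization moved the median of all genes to 0.34, and 40 members lay above that median.

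**Figure D1:**
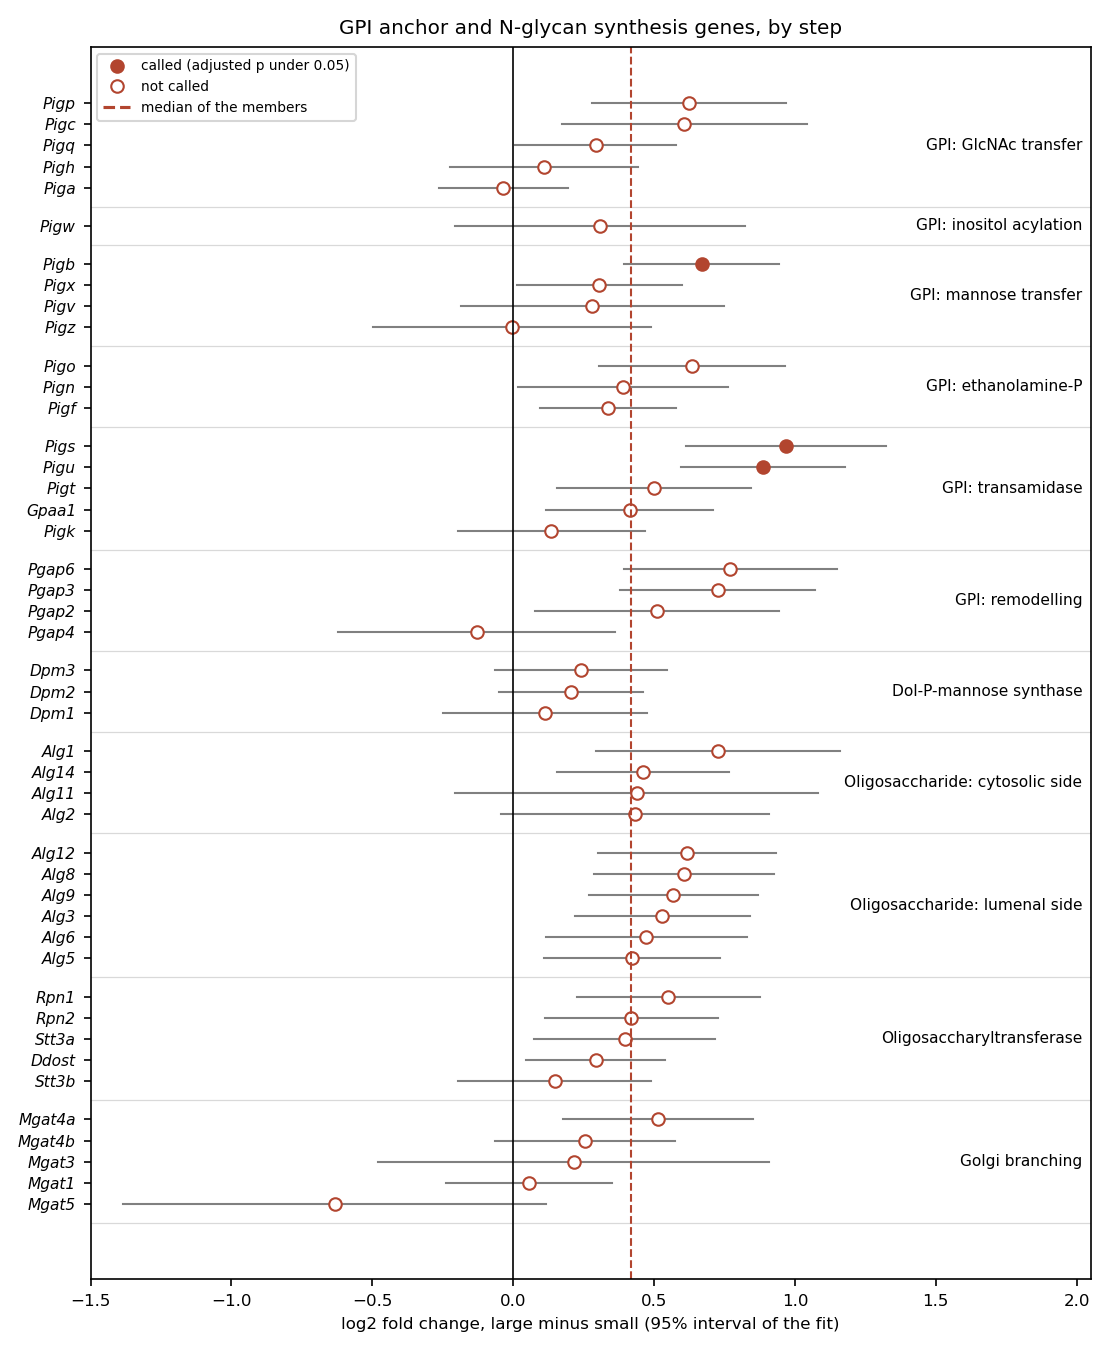
Log2 fold change, large minus small tumors, of each of the 45 genes with the 95% interval of the limma fit, in blocks by step of the pathway (n = 3 arrays per group). Filled points are the 3 called genes, and the dashed line is the median of the 45 at 0.42, with 4 points lying below 0.

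The 95th percentile of signal was 1761 to 1997 in large tumors, against 949, 1561 and 1478 in small replicates 1 to 3, so that small replicate 1 was dimmer than the rest. It held the lowest value of 27 of the 45 genes, and large replicate 3 the highest of 32. With each gene centred on its mean over the 6 arrays, the median of the 45 was 0.13, 0.21 and 0.33 in large replicates 1 to 3 and -0.32, -0.11 and -0.16 in small replicates 1 to 3. Without small replicate 1 the median log2 fold change was 0.32 and 43 of 45 were above 0. Over the series 83 genes were called higher and 177 lower. That split was 181 and 224 when arrays were quantile-normalized without background correction, and 96 and 66 with median centring.

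**Figure D2:**
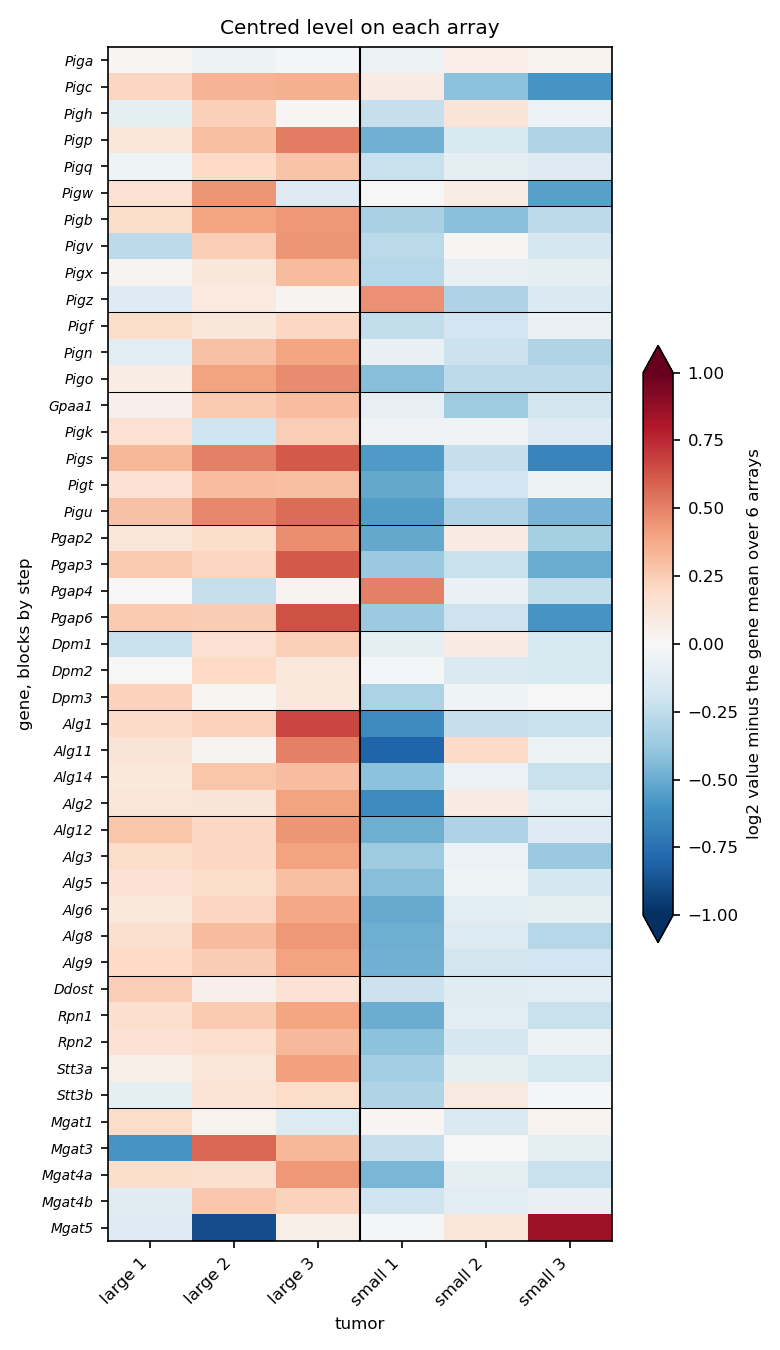
Level of each of the 45 genes on each array, as the log2 value minus the gene's mean over the 6 arrays, with large tumors left of the line and small tumors right of it. Large replicate 3 holds the highest value of 32 genes and small replicate 1 the lowest of 27.

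Of the 3 called genes 2 encode subunits of the GPI transamidase, which cuts the end of a precursor protein and joins it to the anchor. Values are given from here on as background-corrected, normalized log2 intensity of 1 probe per gene. An offset of 16 was added before the log, which understates the change of dim genes. Pigs, a transamidase subunit (probe ILMN_2645262), had 7.29, 7.46 and 7.57 in large tumors, against 6.39, 6.73 and 6.30 in small tumors. All 3 large tumors were above all 3 small ones, and the rise was 0.97 ± 0.15 (SE, n = 3 per group), or 1.96-fold, with a limma adjusted p of 0.0374. Before normalization its signals were 278, 314 and 305 in large tumors, against 135, 195 and 171 in small tumors.

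Pigu, the subunit thought to recognise the lipid part of the anchor (ILMN_2730074), had 9.55, 9.74 and 9.82 in large tumors, against 8.71, 8.95 and 8.79 in small tumors. The groups did not overlap, and the rise was 0.89 ± 0.12, or 1.85-fold (limma adjusted p = 0.0324). Its signals before normalization were 998, 1162 and 1079 in large tumors, against 319, 569 and 518 in small tumors.

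The other transamidase subunits did not pass. Pigt, which is linked to the catalytic subunit by a disulfide bond, had 12.11, 12.27 and 12.27 in large tumors and 11.46, 11.78 and 11.92 in small tumors, a log2 fold change of 0.50 ± 0.15 (limma adjusted p = 0.117). Gpaa1, which is needed to form the bond between protein and anchor, was at 0.41 ± 0.12 (limma adjusted p = 0.125). Groups did not overlap for either. Pigk, the catalytic protease subunit, had overlapping groups, with 8.84, 8.49 and 8.93 in large tumors and 8.65, 8.65 and 8.56 in small tumors. Its log2 fold change was 0.13, with a 95% interval of -0.20 to 0.47, and its second detected probe gave 0.42. The 5 subunits of the complex thus spanned 0.13 to 0.97 with the probes used, and 4 of the 5 had groups that did not overlap (16.1% of all genes were apart in this direction).

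Mannose is added to the growing anchor by Pigm with Pigx, then Pigv, Pigb and in some cells Pigz. Pigb (ILMN_1233237) had 7.02, 7.24 and 7.27 in large tumors, against 6.52, 6.43 and 6.58 in small tumors. The groups lay apart, and the rise was 0.67 ± 0.11, or 1.59-fold (limma adjusted p = 0.0415). With median centring in place of quantile normalization it was at 0.98 and not called (limma adjusted p = 0.0535). Pigx, the partner that stabilises Pigm, was at 0.31 (95% interval 0.01 to 0.60), Pigv at 0.28 and Pigz, which adds a side-branch mannose, at -0.01, and none of the 3 passed. Pigm itself was not analysed here.

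Ethanolamine phosphate, through which the anchor is joined to the protein, is added by Pign, Pigo and Pigg, the last 2 with Pigf as partner. Pigo had 9.66, 9.99 and 10.06 in large tumors, against 9.16, 9.32 and 9.33 in small tumors. Every large tumor was above every small one, at 0.63 ± 0.14 (limma adjusted p = 0.0663), and all 4 detected probes of Pigo were positive, from 0.40 to 0.63. Pign and Pigf were at 0.39 and 0.34, and neither passed.

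The first committed step, transfer of N-acetylglucosamine (GlcNAc) to phosphatidylinositol, is carried out by a complex of many subunits, of which 5 were measured. Its catalytic subunit Piga was nearly level, with 7.94, 7.87 and 7.91 in large tumors and 7.87, 7.99 and 7.96 in small tumors. The groups overlapped, and the log2 fold change was -0.04, with a 95% interval of -0.26 to 0.19. Pigp, a small subunit, had 10.75, 10.93 and 11.14 in large tumors and 10.15, 10.48 and 10.32 in small tumors, at 0.62 ± 0.14 (limma adjusted p = 0.0764). Pigc was at 0.61, Pigq at 0.29 and Pigh at 0.11, with groups apart for the first pair and overlapping for Pigh. Groups were apart for Pigp too, so that in 3 of the 5 every large tumor lay above every small one, against 16.1% of all genes. With the probes used, subunits of 1 complex ranged from -0.04 to 0.62. Of the 5, 0 were called, where 0.789% of all genes were called higher. The second detected probe of Pigp gave 0.26 and that of Pigh 0.56, so the order of these subunits depends on the probe. Pigw, which acylates the inositol, was at 0.31 ± 0.22 with overlapping groups (6.76, 7.06 and 6.48 in large, 6.62, 6.69 and 6.07 in small tumors).

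**Figure D3:**
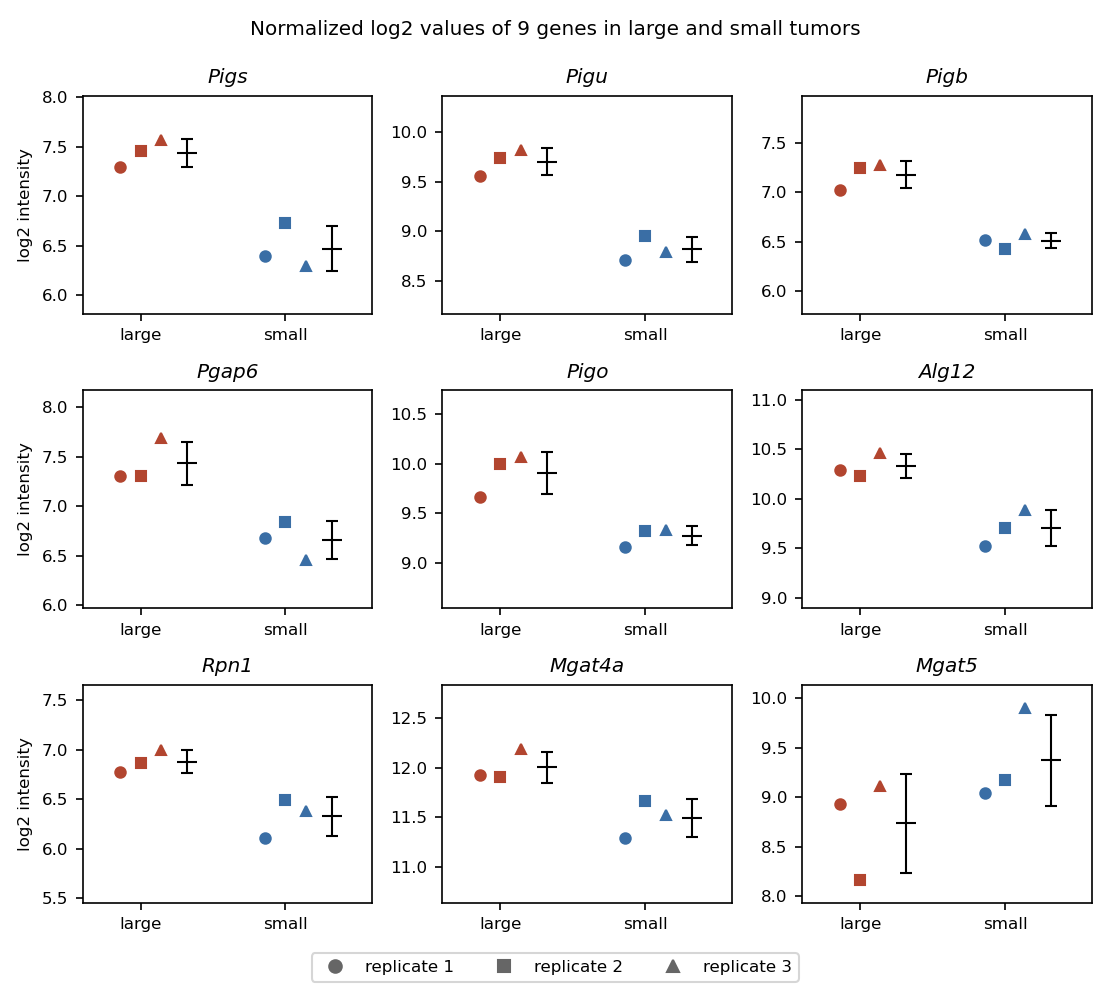
Normalized log2 intensity of 9 genes in the 3 large and 3 small tumors, each panel spanning 2.2 log2 units, with marker shape giving the replicate and bars the mean ± SD (n = 3). Large and small tumors do not overlap for the first 8 genes and overlap for Mgat5. The 9 are called genes, genes with the smallest p of their step or genes with disagreeing probes, and do not stand for the 45. Of the 45, 30 had every large tumor above every small one, against 16.1% of all genes.

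After attachment, Pgap enzymes alter the anchor. Pgap3, which removes a fatty acid in the Golgi, had 6.28, 6.23 and 6.63 in large tumors, against 5.65, 5.80 and 5.52 in small tumors. The groups lay apart at 0.73 ± 0.15 (limma adjusted p = 0.0573). The 1 probe of Pgap3 was dim, with signals before normalization of 183, 190 and 207 in large tumors and 117, 147 and 138 in small tumors. With quantile normalization alone Pgap3 was at 0.29 (limma adjusted p = 0.0811). Pgap6, a phospholipase that can release GPI-anchored proteins, had 7.31, 7.30 and 7.69 in large tumors and 6.69, 6.84 and 6.46 in small tumors, at 0.77 ± 0.16 (limma adjusted p = 0.0596). Its 3 detected probes did not move alike: the other pair gave 0.11 and -0.38, so no direction is given for Pgap6 as a gene. Pgap2, which acts after Pgap3, was at 0.51, and Pgap4, which adds a side-chain sugar, at -0.13. None of the 4 was called, where 0.789% of all genes were called higher.

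In the N-glycan route all 15 of the chosen Alg, Rpn, Stt3 and Ddost genes, which assemble and transfer the oligosaccharide, were above 0, with a median of 0.46. In 13 of them the groups did not overlap (all higher), against 16.1% of all genes, and 12 were higher at an unadjusted p under 0.05, against 12.3%. Of the 15, 0 were called, where 0.789% of all genes were called higher. Assembly on the cytosolic face was led by Alg1, which adds the first mannose. Alg1 had 9.72, 9.76 and 10.20 in large tumors, against 8.90, 9.30 and 9.31 in small tumors, with groups apart at 0.73 ± 0.18 (limma adjusted p = 0.0879). Alg14, the membrane partner of Alg13, was at 0.46, and Alg2 and Alg11, which add the next mannoses, at 0.43 and 0.44. For Alg11 the groups overlapped, and its 95% interval was -0.21 to 1.08.

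On the lumenal face 6 of 6 genes were higher with groups apart (16.1% of all genes were), with log2 fold changes of 0.42 to 0.62 (adjusted p = 0.064 to 0.137, limma). Alg12, a mannosyltransferase, had 10.29, 10.23 and 10.46 in large tumors, against 9.53, 9.71 and 9.89 in small tumors, at 0.62 ± 0.13. Alg8 and Alg6, which add glucose, were at 0.61 and 0.47, and Alg9 and Alg3, which add mannose, at 0.57 and 0.53. Alg5, which is not itself a lumenal enzyme, was at 0.42.

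Of the oligosaccharyltransferase, Rpn1, a scaffold subunit also called ribophorin I, had 6.77, 6.86 and 7.00 in large tumors, against 6.11, 6.50 and 6.38 in small tumors. The groups lay apart at 0.55 ± 0.14 (limma adjusted p = 0.0862). The 1 probe of Rpn1 was dim, with signals before normalization of 222, 239 and 237 in large tumors and 127, 181 and 175 in small tumors. With quantile normalization alone Rpn1 was at 0.27 (limma adjusted p = 0.093). Rpn2 had 14.30, 14.32 and 14.48 in large tumors and 13.75, 13.99 and 14.10 in small tumors, at 0.42 ± 0.13. Ddost was at 0.29, and the alternative catalytic subunits Stt3a, which acts during translation, and Stt3b, which can act after it, were at 0.40 and 0.15. For Stt3b the 95% interval was -0.20 to 0.49 with the probe used, while another of its probes gave 1.07 ± 0.20, so the array does not settle the size of its change. None of the 5 was called, where 0.789% of all genes were called higher.

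The synthase that supplies mannose and the Golgi branching enzymes had median log2 fold changes of 0.20 and 0.21. Dpm1, Dpm2 and Dpm3, the subunits of dolichol phosphate mannose synthase, were at 0.11, 0.20 and 0.24, with intervals that all included 0. Of the 3, 0 were called, where 0.789% of all genes were called higher. In 2 of the 3, Dpm2 and Dpm3, every large tumor lay above every small one, against 16.1% of all genes. Dpm2 had 10.81, 11.01 and 10.92 in large tumors and 10.80, 10.67 and 10.66 in small tumors, groups that were apart by little. Of 5 Golgi Mgat genes 0 were called, where 0.789% of all genes were called higher. In 1 of the 5, Mgat4a, which starts a branch on the glycan core, the groups did not overlap, against 16.1% of all genes. Mgat4a had 11.92, 11.91 and 12.18 in large tumors and 11.29, 11.66 and 11.52 in small tumors, at 0.51 ± 0.14 (limma adjusted p = 0.106). Mgat4b was at 0.26, Mgat3, which adds the bisecting GlcNAc, at 0.21, and Mgat1, which starts the hybrid and complex types, at 0.06.

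Mgat5, which starts the branch that carries galectin ligands, had the lowest log2 fold change of the 45. It had 8.93, 8.17 and 9.12 in large tumors, against 9.04, 9.18 and 9.90 in small tumors. The groups overlapped, small replicate 3 was the highest and large replicate 2 the lowest, and the log2 fold change was -0.63 ± 0.32 (limma adjusted p = 0.285). Its other 2 detected probes, which are dimmer, gave 0.55 and 0.45. With the mean of its probes it was at 0.12, and no direction is given for it.

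Of the 45 genes 22 had more than 1 detected probe, and in 20 of these all probes were above 0. The exceptions were Mgat5 and Pgap6. In all, 74 of 79 probes were positive, and 21 of 34 probes not used for the gene test were higher than the probe used. When every probe was tested on its own, 8 were called higher (1.52% of all probes were), among them 2 probes of Alg8 and 1 each of Alg5, Alg9 and Stt3b that are not the brightest of their genes. The probes of Alg8 ran from 0.23 to 1.29, and those of Alg5, all positive, from 0.42 to 0.88. Probes of a gene differed by over 0.5 in 5 genes.

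**Figure D4:**
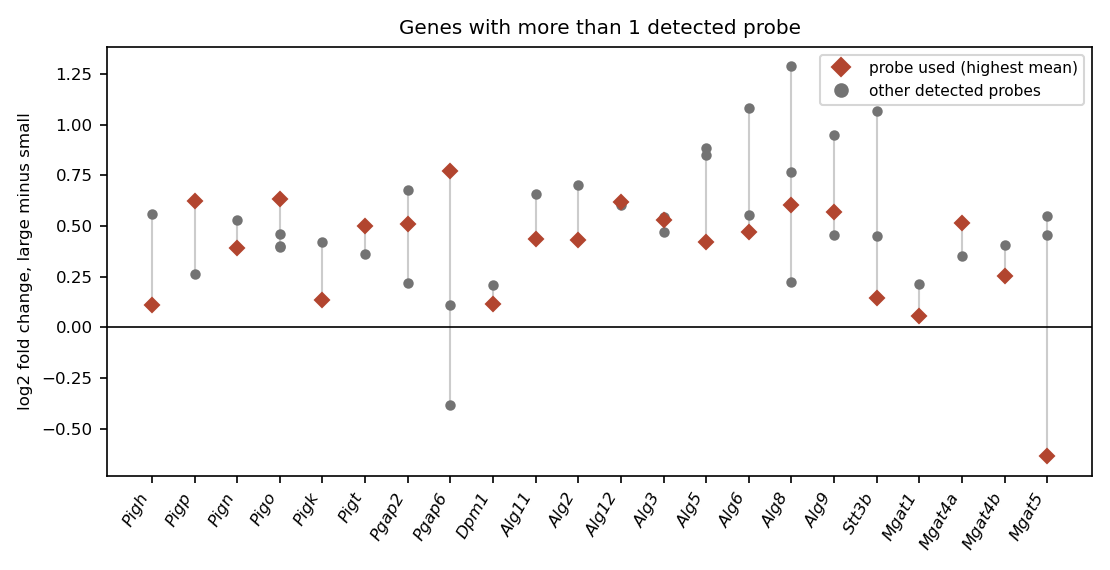
Log2 fold change, large minus small tumors, of every detected probe of the 22 genes with more than 1, where diamonds are the probe used in the gene test and circles the others. All probes lie above 0 except 1 of Mgat5 and 1 of Pgap6.

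Other genes of these pathways were taken from lists. A list of genes that supply dolichol, nucleotide sugars and mannose phosphate, which also holds the assembly enzymes Dpagt1 and Alg10b, had a median of 0.07. Of its 16 tested genes 10 were above 0 and 0 were called, where 0.789% of all genes were called higher. Dpagt1, which adds the first sugar to dolichol phosphate, was at 0.21 ± 0.12. Their lowest p-values were those of Alg10b, which adds the last glucose and was at 0.62 ± 0.15 (limma adjusted p = 0.0819), and Mpdu1, needed to use dolichol-linked mannose, at 0.59 ± 0.15. The remaining oligosaccharyltransferase subunits had 0 of 4 called, 4 above 0 and a median of 0.29, with Dad1 at 0.56 ± 0.14 and Ostc at 0.38 ± 0.15.

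Among genes that trim the new glycan and use it for folding and sorting, 2 of 16 rose, against 0.789% of all genes. Of the 16, 15 were above 0 and the median was 0.38. Man1a2, a Golgi mannosidase, had 7.22, 7.60 and 7.66 in large tumors, against 6.57, 6.73 and 6.28 in small tumors, a rise of 0.97 ± 0.17, and the ER lectin chaperone Calr rose by 0.75 ± 0.12. Each was called in 10 of 17 alternatives, with a limma adjusted p of 0.0201 to 0.172 for Man1a2 and 0.0123 to 0.147 for Calr. Calr lost its call whichever array was left out, and Man1a2 kept it only when small replicate 2 was the one left out. With the mean of its probes Man1a2 was at 0.68 (limma adjusted p = 0.055). Of 13 genes for terminal Golgi steps 1 rose, 12 were above 0 and the median was 0.33. It was Slc35a1, the carrier of CMP-sialic acid into the Golgi, with 6.92, 7.03 and 7.07 in large tumors and 6.50, 6.41 and 6.42 in small tumors (0.57 ± 0.10, limma adjusted p = 0.0426). Slc35a1 was called in 6 of 17 alternatives (limma adjusted p = 0.0239 to 0.174), and lost its call with the authors' processed values and whichever array was left out. It was at 0.30 with quantile normalization alone and 0.87 with median centring, and was not called with either. A further list of ER chaperones had a median of 0.46, 12 of 12 above 0 and 0 called. Creld2 and Sdf2l1, both induced by ER stress, were at 0.70 ± 0.13 and 0.74 ± 0.15. In 8 of the 12 every large tumor lay above every small one (16.1% of all genes did), and in 4 the groups overlapped. The 4 were Hsp90b1 at 0.03, Dnajc10 at 0.07, Hspa5 at 0.13 and Hyou1 at 0.77. The Hspa5 probe was dim and was detected on 2 large and 2 small arrays.

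Genes for proteins that receive a GPI anchor were split between directions. Of 21 measured genes for GPI-anchored proteins 10 were above 0 and 11 below, and the median was -0.01. In the test 1 fell, where 1.68% of all genes were called lower. Cd52, a short GPI-anchored peptide of leukocytes, had 10.20, 9.50 and 10.13 in large tumors, against 11.81, 11.18 and 11.66 in small tumors. The groups lay apart and it fell by 1.61 ± 0.24 (limma adjusted p = 0.0374). Cd52 was called in 12 of 17 alternatives (limma adjusted p = 0.0139 to 0.123), and not without large replicate 1, 2 or 3 or small replicate 1 or 3.

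Markers of other cell types also moved with tumor size, and their part in these results was not tested. Melanocyte markers were detected for all 11 genes listed, with a median log2 fold change of 0.09 and 0 called. Their array medians of centred values were 0.02, 0.10 and 0.11 in large tumors, against -0.05, -0.04 and -0.09 in small tumors. All 12 skeletal muscle markers were below 0, with 11 called, where 1.68% of all genes were called lower. Their array medians were -1.09 to -0.76 in large tumors and 0.74 to 1.26 in small tumors. All 6 tested T cell markers of 12 listed were below 0, with 4 called and array medians of -0.82 to -0.52 in large tumors and 0.36 to 1.16 in small tumors. Macrophage markers were below 0 in 11 of 11 tested, with a median of -0.61 and 1 called. At an unadjusted p under 0.05, 8 of the 11 were lower, against 10.2% of all genes. Array medians of the macrophage markers overlapped between groups (-0.54 to -0.02 in large, -0.08 to 0.50 in small tumors). Keratinocyte markers varied most within groups, from -2.72 to 2.66 in large tumors and from -2.58 to 1.93 in small tumors, with 0 of 8 called. Fibroblast and endothelial markers had medians of -0.14 and -0.08, with 0 of 9 and 0 of 10 called.

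**Figure D5:**
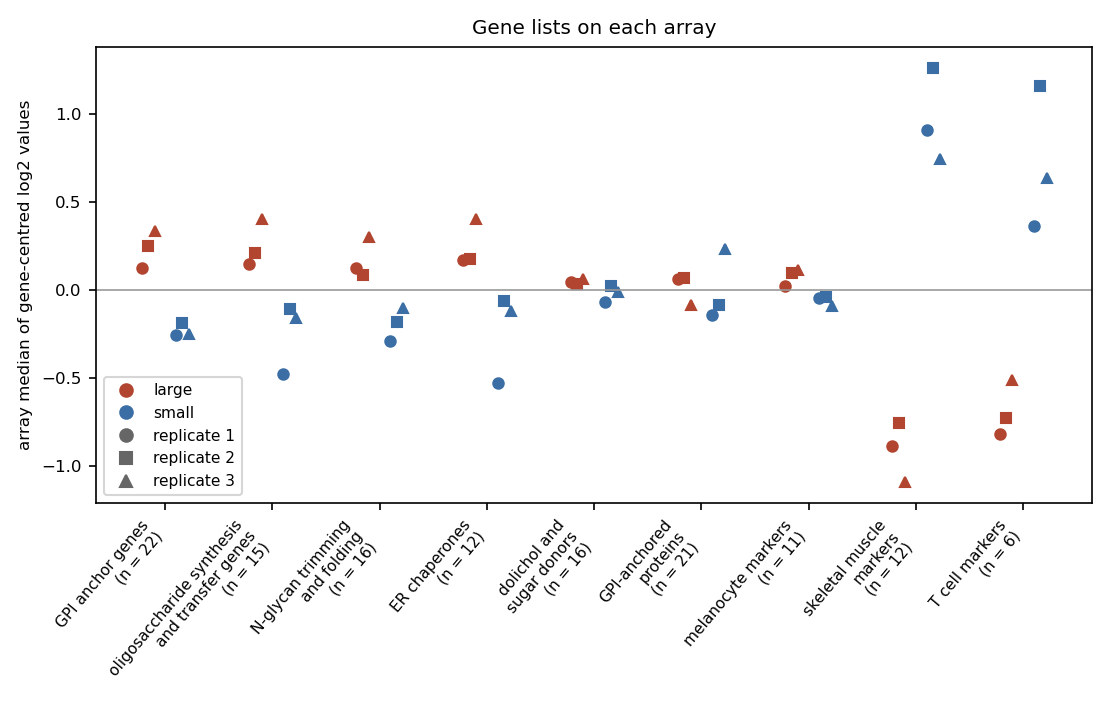
Median over the genes of each list of the log2 value minus the gene's mean, for each array, with large tumors left and small tumors right within a list and n the number of genes tested. The GPI anchor genes lie between 0.12 and 0.33 in large tumors and between -0.26 and -0.19 in small tumors, and the oligosaccharide genes between 0.14 and 0.40 in large tumors and between -0.48 and -0.11 in small tumors.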

How the data were processed

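RNA of 3 large and 3 small tumors was measured on 1 bead array each. Per the file headers, the deposited signals are mean bead intensity on a linear scale and come with a detection p-value per probe. GenomeStudio is named in the submitters' processing notes, without a version. The other deposited table has intensity as processed by the authors for 20346 of 45281 probes, with a floor of 28.8. Column medians of large replicates 1 to 3 were 132.7, 130.8 and 128.5, those of small replicates 1 to 3 were 120.0, 130.2 and 131.6, its linear scale and columns matched the signals (r at least 0.941 with the own array), and its background correction, normalization and any centring stay unknown.

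Signals were corrected and quantile-normalized with neqc (limma 3.58.1, R 4.3.3, offset 16). Probes detected at p under 0.05 on 3 or more arrays were kept (19120, of which 16256 had 1 symbol). Of the 20346 probes, 17300 had 1 symbol in the platform annotation, 11 several and 3035 were unnamed here. The gene names of 17278 probes were checked by Entrez identifier against RefSeq, with 0 changed. The probe with the highest mean stood for a gene, which gave 10523 genes. Groups were compared with lmFit and eBayes and Benjamini-Hochberg adjustment over all genes, with calls made where the adjusted p was under 0.05. The number of arrays limits the precision, and an exact permutation test of 3 against 3 cannot go below 0.1. The fit was tested on simulated data.

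Members, lists and tests were chosen with earlier results of these data known, so no list was tested. By rule, all called members, the member with the smallest p of each step, the lowest member and members with disagreeing probes were given with their values, as were up to 4 called genes of each other list, or the 2 with the smallest p. Further members and Pigt, Pigk, Piga and Rpn2 in full were added to complete their complexes after values were seen. Other normalizations, filters, probe rules, priors, array weights, a replicate block and leaving out single arrays were tried.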

Additional observations from a re-analysis of the deposited data

How the results depend on the processing

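The median of the 45 genes was above 0 in all 17 alternatives, while the number called was not stable. Members called higher (3 as reported) were 8 with quantile normalization alone, 8 with offset 50, 9 with detection on all arrays, 8 probes with every probe on its own, 15 with a trended and robust prior and 10 with array weights. The share of all genes (or probes) called higher, 0.789% as reported, was 1.72%, 1.4%, 1.85%, 1.52%, 2.94% and 2.43% in the same order. Genes called over the series (260 as reported) were 405 with quantile normalization alone, 162 with median centring, 402 with detection on all arrays, 534 with every probe on its own, 656 with the trended prior and 574 with array weights. The median of the 45 was 0.30 with quantile normalization alone and 0.80 with median centring, where the median of all genes was 0.34. Leaving out 1 array at a time gave 0 to 300 genes, 0 to 2 members and medians of 0.32 to 0.48. With the replicate number as a block limma called 109 genes, of which 7 were higher (0.0665% of all genes), and 0 members. With that block 25 members were higher at an unadjusted p under 0.05, against 11.5% of all genes. Same-numbered tumors did not deviate together (r = -0.55, -0.07 and -0.45), so the numbers do not pair them. Pigs and Pigu were each called in 11 of 17 alternatives (log2 fold change 0.54 to 1.28, adjusted p = 0.0157 to 0.141, and 0.76 to 1.29, adjusted p = 0.00617 to 0.116) and Pigb in 9 (0.36 to 0.98, adjusted p = 0.0235 to 0.172). The cause of these shifts was not tested. The number of arrays limits the precision, and dim probes close to background, such as that of Pigv, limit what can be seen of their genes.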
